A study of Mus musculus with 16 samples.

Results

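The AP-1 transcription factor genes were followed as the 9 genes Fos, Fosb, Fosl1, Fosl2, Jun, Junb, Jund, Atf3 and Maff, picked by gene name from the 55487 genes of the expression tables. All 9 were present once and were tested in every comparison. RNA was sequenced from 16 libraries of young male C57BL/6J mice (C57BL/6 in the labels), 21 days after surgery on 1 sciatic nerve. In the DEN groups a piece of the nerve was cut out, and in the sham groups the nerve was located and left intact. The 4 groups held 4 libraries each and were sham fibers, DEN fibers, sham whole muscle and DEN whole muscle. Fibers were pools of single myofibers freed by collagenase from the extensor digitorum longus (EDL), and whole muscle was the undigested tibialis anterior (TA). Muscle and preparation therefore cannot be told apart in any comparison of fibers with whole muscle. The comparisons asked how DEN changed the AP-1 transcripts in each preparation, how the preparations differed, and whether the DEN response differed between them.

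AP-1 is a family of dimeric transcription factors that bind DNA through a basic region and pair through a leucine zipper. Fos proteins bind DNA as partners of Jun proteins, whereas Jun proteins also pair with each other. Atf3 pairs with Jun proteins, and the small Maf protein Maff pairs with Fos proteins. All of them have other partners too. Most of these genes are immediate early genes, whose transcripts appear within minutes of a stimulus such as a growth factor, calcium influx, stress or injury and are short-lived.

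On the GRCm38 assembly, Fos (ENSMUSG00000021250) lies on chromosome 12 at 85473890 to 85477273, Fosb (ENSMUSG00000003545) on chromosome 7 at 19302696 to 19310051, Fosl1 (ENSMUSG00000024912) on chromosome 19 at 5447547 to 5455946 and Fosl2 (ENSMUSG00000029135) on chromosome 5 at 32135801 to 32157842. Jun (ENSMUSG00000052684) lies on chromosome 4 at 95049034 to 95052222, and its single exon fills the whole gene, as does that of Jund (ENSMUSG00000071076) on chromosome 8 at 70698949 to 70700616. Junb (ENSMUSG00000052837) lies on the same chromosome at 84974484 to 84978718. Atf3 (ENSMUSG00000026628) lies on chromosome 1 at 191170296 to 191218039 and Maff (ENSMUSG00000042622) on chromosome 15 at 79346621 to 79359076.

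RefSeq promoter windows of GRCm38.p6 (250 bases before to 50 after a transcription start) were found for 8 of the 9 genes, in 10 windows, and Fosl1 had none. The 150 bases that end at the start are shown for 5 genes that were lower in DEN fibers and higher in fibers than in whole muscle, because their windows hold related short motifs. Maff met the same conditions and is not shown. Capitals mark TGACG, the core of the cAMP response element bound by CREB and ATF proteins, and TGACNTCA, the AP-1 and ATF element, each searched on both strands.
Fos: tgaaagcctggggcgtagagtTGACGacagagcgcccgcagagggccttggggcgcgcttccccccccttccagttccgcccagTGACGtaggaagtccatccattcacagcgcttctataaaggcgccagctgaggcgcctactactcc
Fosb: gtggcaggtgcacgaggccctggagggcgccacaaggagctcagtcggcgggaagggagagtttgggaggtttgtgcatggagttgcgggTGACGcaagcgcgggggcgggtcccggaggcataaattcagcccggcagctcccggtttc
Jun: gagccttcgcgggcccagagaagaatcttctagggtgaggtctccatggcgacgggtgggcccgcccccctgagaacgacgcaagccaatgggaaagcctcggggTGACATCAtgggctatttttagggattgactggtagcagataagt
Junb: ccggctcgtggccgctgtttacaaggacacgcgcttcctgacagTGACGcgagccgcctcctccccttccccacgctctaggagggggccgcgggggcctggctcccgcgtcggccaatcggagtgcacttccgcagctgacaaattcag
Atf3: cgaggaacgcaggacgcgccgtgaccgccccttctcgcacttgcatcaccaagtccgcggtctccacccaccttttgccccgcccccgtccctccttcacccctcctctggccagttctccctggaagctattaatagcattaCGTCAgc

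These stretches lie at chr12:85473740-85473889 (Fos, plus strand), chr7:19310046-19310195 (Fosb, minus strand), chr4:95052223-95052372 (Jun, minus strand), chr8:84978749-84978898 (Junb, minus strand) and chr1:191183334-191183483 (Atf3, minus strand). TGACG was found in windows of 5 of the 8 genes, namely Fos, Fosb, Junb, Atf3 and Maff. It was in 20.8% of the 32851 windows of all genes, which is a share of windows and not of genes. In Fos it begins 129 and 66 bases upstream of the start, in Fosb 60 and in Junb 106 bases upstream. In Atf3 it is on the opposite strand and is printed as CGTCA, whose first base lies 7 bases upstream. The Atf3 stretch lies inside the gene coordinates given above, so this RefSeq start is internal to the gene. TGACNTCA was found in Jun, 45 bases upstream, and in Maff, and in 8.83% of all windows. One of the Maff matches reads TGACGTCA and therefore holds TGACG on both strands. The classical AP-1 site TGANTCA was in none of the 10 windows and in 7.81% of all windows. The serum response factor motif known as the CArG box was also in none of the 10 windows and in 1.63% of all windows. Sequence further than 250 bases upstream was not searched, so sites there would be missed. The windows of Fosl2 and Jund held none of these motifs.

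Sequencing depth was 47570214 to 62297405 counts per library, and levels are given in RPM (reads scaled to the total of each library). Nothing in the labels says whether EDL and TA libraries came from the same mice, so each library was treated as 1 animal. The DEN labels were checked with Chrng, the fetal acetylcholine receptor subunit, and Myog, a myogenic factor, which are both induced by loss of innervation. Chrng was at 55.6 ± 17.3 RPM in DEN and 0.203 ± 0.101 RPM in sham fibers (SD, n = 4), and at 70.6 ± 21.8 and 0.0750 ± 0.0470 RPM in whole muscle. Myog rose by 4.06 in fibers and by 6.19 in whole muscle on the log2 scale. Fold changes are log2 values from edgeR's quasi-likelihood test with TMM scaling, given with their standard errors (SE), and adjusted p values are Benjamini-Hochberg values over all genes tested, with a threshold of 0.05. TMM (trimmed mean of M values) centres the bulk of genes on no change. With scaling to total counts only, the median of all genes for DEN over sham shifted to 0.49 in fibers and to 0.45 in whole muscle. The genes called higher in fibers then made up 86.9% of all calls, against 50.1% with TMM, and in whole muscle 81.5% against 51.4%. RPM values carry the same shift, so they lie higher for DEN relative to sham than the fold changes do.

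All 9 genes were higher in sham fibers than in sham whole muscle, where 25.5% of the 16005 genes tested were higher. The median over the 9 was 6.98 on the log2 scale, against 0.0026 over all genes tested. The libraries of the groups did not overlap for any of the 9, a separation that 23.4% of tested genes showed in this direction. In bulk RNA, a difference in the number of cells of a type and a difference in RNA per cell cannot be told apart.

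Fos, the prototype of the family, had 1491, 1720.2, 1642 and 1489 RPM in sham fiber libraries 1 to 4. It had 24.4, 4.08, 4.50 and 4.51 RPM in sham whole muscle libraries 1 to 4. Replicate 1 of sham whole muscle was several times above its group, and all whole muscle libraries were far below all fiber libraries. The difference was 7.39 (SE 0.66, adjusted p = 1.7e-05) and became 8.46 without that library. The largest difference among the members was that of Fosb, a close relative of Fos, with 9.68 (SE 0.28). Fosb was at 513 ± 143 RPM in the former and 0.605 ± 0.211 RPM in the latter. Fosl1 (also called Fra-1), which lacks the transactivation domain of Fos, was scarce in both groups. It had 340, 669, 414 and 243 counts in sham fibers and 7, 1, 1 and 4 counts in sham whole muscle, so it passed the filter on low counts through the fibers alone. Its difference was 7.04 (SE 0.51), and 7.69 without replicate 1 of sham whole muscle. Fosl2 (Fra-2), a late member of the family, differed by 4.04 (SE 0.22).

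Among the Jun genes, Junb differed most, by 6.98 (SE 0.23, adjusted p = 4.33e-08). Sham fiber libraries had 1021, 1366, 1068 and 991 RPM and sham whole muscle libraries 11.8, 9.29, 6.00 and 7.65 RPM. Jun, the first member of its family to be described, differed by 3.38 (SE 0.20), and Jund, which many resting cells express steadily, by 2.85 (SE 0.15). Jund therefore showed the smallest difference of the 9. Atf3, a stress-induced factor, was in the 2 sham groups at 702, 618, 721 and 593 RPM (fibers) and at 6.89, 2.48, 3.16 and 2.82 RPM (whole muscle), a difference of 7.41 (SE 0.33). Maff, a small Maf protein without a transactivation domain, differed by 5.62 (SE 0.22).

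**Figure D1:**
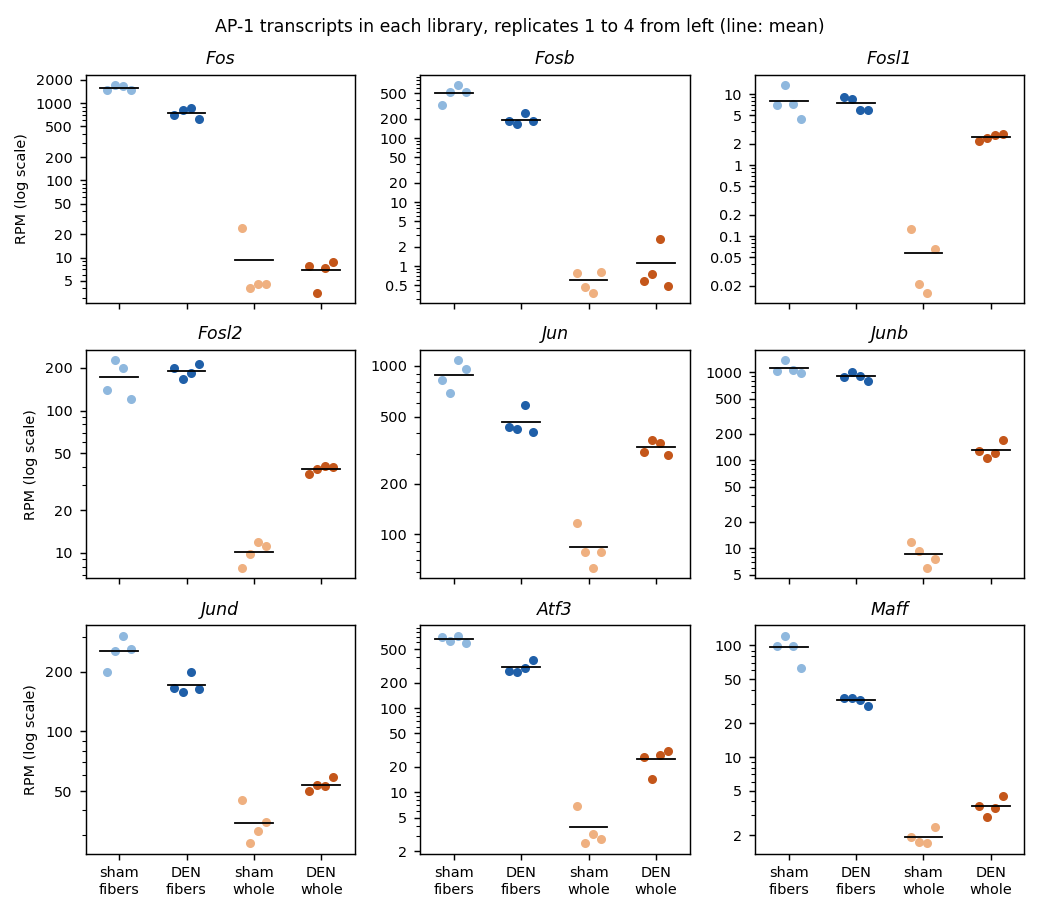
Each panel plots 1 AP-1 gene, with RPM on a log axis against group, 1 point per library (replicates 1 to 4 from left) and a line at the mean of 4 libraries. Fiber libraries lie above whole muscle libraries in all 9 panels, and the gap is narrower for the DEN groups, with Jun at a mean of 462 RPM in DEN fibers and 328 RPM in DEN whole muscle.

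In DEN fibers, 7 of the 9 genes fell relative to sham fibers and none rose, where 27.0% of the 16724 genes tested fell and 27.1% rose. The median over the 9 was -1.44, against 0.0076 over all genes tested. In RPM, which is not centred, 6 of the 9 lay below sham without overlap of the libraries, as 7.77% of tested genes did.

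Fos had 706, 809, 854 and 627 RPM in DEN fibers, all below its 4 sham fiber libraries, and fell by 1.57 on the log2 scale (SE 0.10, adjusted p = 1.76e-06), a 2.98-fold lower level. Fosb had 184, 165, 246 and 187 RPM in DEN fibers against 329, 528, 679 and 517 RPM in sham fibers. The groups did not overlap, and Fosb fell by 1.87 on the log2 scale (SE 0.17, adjusted p = 1.65e-05). Neither Fosl1 nor Fosl2 passed the test. Fosl1 had 8.97, 8.65, 6.05 and 6.00 RPM in DEN fibers and 7.01, 13.5, 7.18 and 4.40 RPM in sham fibers, with a change of -0.59 (SE 0.30, adjusted p = 0.124). Fosl2 had 199, 166, 185 and 213 RPM in DEN fibers and 139, 226, 200.3 and 120.3 RPM in sham fibers. The Fosl2 libraries overlapped, its change was -0.32 (SE 0.17, adjusted p = 0.144), and the sign turned with total counts only (0.16, adjusted p = 0.462). Without replicate 4 of sham fibers, the lowest library for both, Fosl1 (-0.78, adjusted p = 0.0305) and Fosl2 (-0.44, adjusted p = 0.0259) passed. Whether Fosl1 and Fosl2 differed in response from Fos and Fosb was not tested.

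All of the Jun genes fell. Jun had 436, 423, 585 and 404 RPM in DEN fibers and 822, 688, 1079.8 and 957 RPM in sham fibers, without overlap, and fell by 1.44 on the log2 scale (SE 0.14, adjusted p = 2.98e-05). Jund had 165, 159, 199 and 163 RPM in DEN fibers and 199.6, 255, 304 and 260.5 RPM in sham fibers. Its highest DEN library lay just under its lowest sham library, and its change was -1.06 (SE 0.09, adjusted p = 1.34e-05). Junb showed the smallest change of the 7, with -0.80 (SE 0.11, adjusted p = 0.000281). Its 882, 997, 905 and 804 RPM in DEN fibers overlapped the sham values, while after TMM scaling the DEN libraries (highest 849.9) lay below the sham libraries (lowest 1159) in CPM (counts scaled to the TMM-adjusted library total). With total counts only, the change of Junb was -0.31 (adjusted p = 0.0338).

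Atf3 had 274, 271, 298 and 375 RPM in DEN fibers, all below the sham fibers, and fell by 1.60 on the log2 scale (SE 0.14, adjusted p = 1.19e-05). Maff fell most of the 9. It had 34.0, 33.6, 32.6 and 28.7 RPM in DEN fibers and 99.7, 122, 99.8 and 63.5 RPM in sham fibers, a change of -2.07 (SE 0.17, adjusted p = 9.08e-06).

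In whole muscle the direction was the opposite for Jun, Junb, Atf3 and Maff, which passed in both preparations. None of the other members passed in both. In DEN whole muscle 6 of the 9 genes rose and none fell, where 34.0% of the 16379 genes tested rose and 32.2% fell, and the median over the 9 was 1.50 against 0.024 over all genes tested. In RPM, 7 of the 9 lay above sham without overlap, as did 57.0% of tested genes. This comparison shared no library with that of the fibers.

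Fosl1 rose most. It had 126, 149, 141 and 136 counts in DEN whole muscle against 1 to 7 counts in sham whole muscle, where it stayed under the filter on low counts, so that it was tested only because of the DEN libraries. The change was 4.96 (SE 0.32, adjusted p = 2.55e-07), and 5.63 without replicate 1 of sham. Fosl2 rose by 1.50 (SE 0.12, adjusted p = 1.11e-06), from 7.84, 9.75, 12.0 and 11.2 RPM in sham to 35.9, 38.7, 40.6 and 40.3 RPM in DEN whole muscle. The DEN libraries of Fosl2 were closely grouped and all above sham. Fos did not pass the test. It had 7.73, 3.52, 7.34 and 8.80 RPM in DEN whole muscle, which overlapped the sham values, and its change of -0.87 (SE 0.56, adjusted p = 0.196) rested on replicate 1 of sham, without which it was 0.21 (adjusted p = 0.51). Fosb was scarce in whole muscle, with 0.587, 0.756, 2.65 and 0.487 RPM in DEN. Replicate 3 stood above the other 3, and the change of 0.46 (SE 0.53, adjusted p = 0.466) became -0.42 (adjusted p = 0.239) without it.

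Junb had 129, 106, 121 and 171 RPM in DEN whole muscle, all at least several times the highest sham library, and rose by 3.50 (SE 0.20, adjusted p = 1.06e-07), which is 11.3-fold. Jun had 309, 362, 347 and 297 RPM in DEN whole muscle and 117, 78.2, 63.1 and 78.0 RPM in sham. The groups were well apart, and Jun rose by 1.54 (SE 0.15, adjusted p = 5.67e-06). Jund had 50.1, 53.5, 52.9 and 59.1 RPM in DEN and 44.9, 27.3, 31.3 and 34.8 RPM in sham whole muscle. Although these RPM values did not overlap, its change of 0.21 (SE 0.12) did not pass (adjusted p = 0.143). Scaled to total counts it passed (0.64, adjusted p = 0.00105), as it did without replicate 1 of sham (0.35, adjusted p = 0.00517).

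Atf3 had 25.9, 14.4, 27.9 and 31.2 RPM in DEN whole muscle, all above sham, and rose by 2.27 (SE 0.32, adjusted p = 0.000103). Maff rose least of the 6, by 0.48 (SE 0.16, adjusted p = 0.0196), from 1.93, 1.72, 1.69 and 2.35 RPM in sham to 3.64, 2.88, 3.50 and 4.50 RPM in DEN. The call for Maff was lost when DEN replicate 4 (adjusted p = 0.0583), sham replicate 2 (0.063) or sham replicate 3 (0.0677) was left out.

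**Figure D2:**
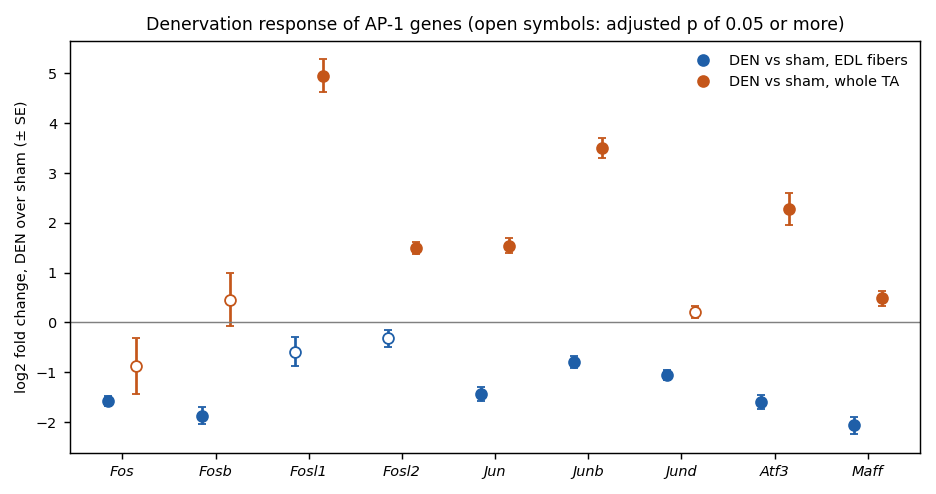
Log2 fold changes of DEN over sham with standard errors are plotted for the 9 AP-1 genes in EDL fibers (blue) and whole TA (orange), 4 libraries per group, and open symbols mark an adjusted p of 0.05 or more. All 9 fiber values lie below 0, from -2.07 for Maff to -0.32 for Fosl2, and 8 of the whole muscle values lie above 0, up to 4.96 for Fosl1. Fosl1 had 1 to 7 counts in sham whole muscle.

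The difference between the DEN response of fibers and that of whole muscle was tested as an interaction on all 16 libraries. It passed for 8 of the 9 genes, always with a lower value in fibers, where 11.8% of the 17497 genes tested passed in that direction, and the median over the 9 was -2.56 against -0.03 over all genes tested. The difference was -5.56 (SE 0.56, adjusted p = 7.97e-06) for Fosl1 and -4.31 (SE 0.25, adjusted p = 5.2e-08) for Junb. Fosl1 had only 1 to 7 counts in sham whole muscle, so the size of its difference is uncertain. Next came Atf3 with -3.88 (SE 0.38) and Jun with -2.99 (SE 0.23). For Maff it was -2.56 (SE 0.25), for Fosb -2.34 (SE 0.55), for Fosl2 -1.83 (SE 0.23) and for Jund -1.28 (SE 0.16). Fos was the exception with -0.71 (SE 0.62, adjusted p = 0.456), but without replicate 1 of sham whole muscle it passed (-1.73, adjusted p = 0.000985). The value of Fosb was -1.44 (adjusted p = 0.0165) without replicate 3 of DEN whole muscle.

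Between the DEN groups all 9 genes were again higher in fibers than in whole muscle, where 30.2% of the 16856 genes tested were higher. Their libraries did not overlap, which held for 29.9% of tested genes in this direction, and the median over the 9 was 2.72 against 0.0081 over all genes tested. This comparison shares the DEN libraries with the comparisons of DEN against sham. The order of the members changed. Fosb and Fos still differed by 7.40 (SE 0.40) and 6.73 (SE 0.27), and Fosb by 8.25 without DEN whole muscle replicate 3. Atf3 differed by 3.57 (SE 0.23), Maff by 3.11 (SE 0.12), Junb by 2.72 (SE 0.14), Fosl2 by 2.25 (SE 0.09), Jund by 1.62 (SE 0.07) and Fosl1 by 1.53 (SE 0.17). Jun had the smallest difference of the 9, with 0.44 (SE 0.10, adjusted p = 0.00315). By mean RPM, sham fibers ranked first among the 4 groups for all members except Fosl2, and neighbouring groups overlapped at the top for Fosl1, Fosl2 and Junb and at the bottom for Fos and Fosb.

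Levels of different genes were compared per gene length, in RPKM (RPM divided by gene length in kilobases). Summed over the 9 genes, RPKM was 2166 ± 166 in sham fibers, 1270.5 ± 91.0 in DEN fibers, 59.5 ± 17.5 in sham whole muscle and 229 ± 13.8 in DEN whole muscle (SD, n = 4). The 9 genes took 0.529% ± 0.046 of all counts in sham fibers and 0.0153% ± 0.0042 in sham whole muscle. The Fos family made up 35.9% ± 0.7 of the summed RPKM in sham fibers and 29.3% ± 1.5 in DEN fibers. In sham whole muscle it made up 7.90% ± 3.66, with a highest library of 13.3%, and in DEN whole muscle 3.62% ± 0.36. The Jun family made up 48.2% ± 1.1 in sham fibers, 58.5% ± 1.2 in DEN fibers, 87.9% ± 4.0 in sham and 90.8% ± 1.7 in DEN whole muscle. The fiber values of both families did not overlap between sham and DEN.

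By mean share, the leading gene differed by group. Fos had the highest mean RPKM in sham fibers (31.1% ± 0.7 of the sum), followed by Junb (28.3% ± 3.2) and Atf3 (14.2% ± 1.6). The libraries of Fos (30.1% to 31.7%) and Junb (25.5% to 32.8%) overlapped there. In DEN fibers Junb led with 39.1% ± 2.5, ahead of Fos with 25.0% ± 1.7. In sham whole muscle Jun (44.4% ± 2.9) and Jund (35.4% ± 4.1) led, and Junb held 8.13% ± 1.38. In DEN whole muscle Jun kept 45.1% ± 6.0, Junb held 31.6% ± 4.8 and Jund 14.1% ± 0.5. The libraries of Jun (37.5% to 51.8%) and Junb (26.9% to 38.0%) overlapped in that group. Fosl1 was the lowest of the 9 in sham fibers, DEN fibers and sham whole muscle, and Fosb in DEN whole muscle. These shares do not depend on the scaling of libraries, since all 9 genes of a library share it. They do depend on the gene lengths behind the deposited RPKM, which equal the merged exons of GENCODE M21 for 8 genes, while for Junb the length is 1809 bases against 2301. With the longer length, Junb held 23.7% in sham fibers, 33.5% in DEN fibers, 6.50% in sham whole muscle and 26.7% in DEN whole muscle, and every member kept its rank in each group.

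**Figure D3:**
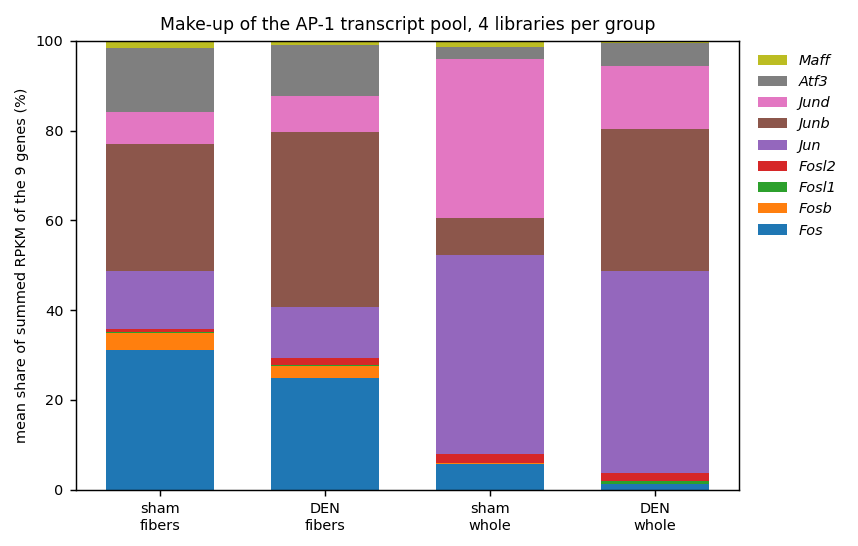
Stacked bars show the mean share of each AP-1 gene in the summed RPKM of the 9 genes (percent, 4 libraries per group). Fos and Junb together fill most of the fiber bars, Jun and Jund most of the sham whole muscle bar, and the Junb part is 8.13% in sham and 31.6% in DEN whole muscle.

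The library with the highest or lowest level within a group was shared by some members and not by others. In sham whole muscle, replicate 1 was the highest library for 6 of the 9 genes (Fos, Fosl1, Jun, Junb, Jund and Atf3) and the lowest for Fosl2. In DEN whole muscle, replicate 4 was the highest for 6 (Fos, Fosl1, Junb, Jund, Atf3 and Maff) and the lowest for Fosb and Jun. Replicate 4 of sham fibers was the lowest for 6 (Fos, Fosl1, Fosl2, Junb, Atf3 and Maff), and the highest values there were shared by replicates 2 and 3. Replicate 4 of DEN fibers was the lowest for 5 genes and the highest for Fosl2 and Atf3. The widest spread within a group was that of Fosl1 in sham whole muscle, where the highest library was 7.86 times the lowest on 1 to 7 counts, followed by Fos in the same group with 5.99 times.

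Genes with the profile most like that of a member over the 16 libraries were sought among 13174 genes with a mean of at least 1 RPM, as the smallest root mean square (RMS) difference between centred log2 profiles of TMM-scaled CPM plus 1. Leaving out members, the nearest to Fos was Egr1, a zinc finger immediate early factor (RMS difference 0.71), followed by the heat shock protein gene Hspa1a (0.82) and the cochaperone gene Dnajb1 (0.86). For Egr1, sham fibers had 1520.2 ± 222.7 RPM and sham whole muscle had 11.0 ± 8.3 RPM. The nearest to Junb were the metallothionein genes Mt2 (0.59) and Mt1 (0.75). Mt2 was at 2.41 ± 1.00 RPM in sham and 54.0 ± 33.8 RPM in DEN whole muscle. The nearest to Atf3 were the antiproliferative gene Btg2 (0.71) and Dnajb1 (0.81). Among the members, Fosb was nearest to Fos (0.65), and Junb and Atf3 lay 0.68 apart. These distances are mostly set by the difference between the 4 groups.

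Upstream of AP-1, mitogen-activated protein (MAP) kinases phosphorylate Jun, Fos and the factors that switch on their genes. Of the 23 tested genes of the MAP kinase cascade, 15 fell and 1 rose in DEN fibers (median -0.42), and 15 fell and 1 rose in DEN whole muscle (median -0.33). Of all genes tested, 27.0% and 32.2% fell in these comparisons. With total counts only, 7 of the kinase genes fell and 9 rose in fibers, and 8 fell and 10 rose in whole muscle. That scaling called 9950 of all 16724 genes tested higher and 1494 lower in fibers. In whole muscle it called 9983 of 16379 higher and 2273 lower, which also holds for the lists below. Among the kinase genes that passed with TMM and had a mean of at least 1 RPM in the higher group, the same 3 changed most both times. Map2k6, a kinase for p38, changed by -1.36 in fibers and -1.95 in whole muscle, Rps6ka2, a ribosomal S6 kinase, by -0.99 and -1.39, and Mapkapk2, a p38 target kinase, by -0.94 and -1.34. Between the sham groups 4 were higher and 11 lower in fibers, where 25.5% of all genes tested were higher and 23.2% lower, among them Map2k7, a kinase for JNK (-1.07), Rps6ka4 (-1.03) and Rps6ka3 (0.90).

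Dual-specificity phosphatases switch MAP kinases off, and several are themselves induced by them. Of 9 tested in fibers, 2 rose and 4 fell with DEN, and of 10 tested in whole muscle, 4 rose and 5 fell. Of all genes tested, 27.1% rose and 27.0% fell in fibers, and 34.0% rose and 32.2% fell in whole muscle. The same shares apply to the DEN counts of the lists below. Dusp4, a nuclear phosphatase, rose by 2.29 in fibers, from 7.37 ± 2.22 to 50.3 ± 6.6 RPM, and by 4.66 in whole muscle, from 1.20 ± 0.11 to 40.8 ± 5.2 RPM. Dusp8 fell in both, with -1.72 in DEN fibers and -2.06 in DEN whole muscle, as did Dusp7 (-1.39 and -1.14), and Dusp2 rose in both (0.84 and 3.20). Dusp5 rose in DEN whole muscle (2.43) and was at -0.0046 (adjusted p = 0.988) in fibers. Scaling to total counts gave 4 that rose and 4 that fell in fibers, and 6 and 3 in whole muscle. In sham fibers 7 of 9 were higher than in sham whole muscle, led by Dusp5 (3.98), Dusp2 (3.77) and Dusp4 (2.58). Of all genes tested, 25.5% were higher in sham fibers and 23.2% lower, which also holds for the lists below.

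Of the 11 tested transcriptional inputs to AP-1 genes, such as serum response factor, its coactivators, CREB coactivators and Stat3, 2 rose and 7 fell in DEN fibers (median -0.48), and 4 rose and 5 fell in DEN whole muscle (median -0.0071). Mrtfa, an actin-sensing coactivator of serum response factor, changed by -1.14 in fibers and by -1.36 in whole muscle. Srf fell in both (-0.67 in fibers and -1.03 in whole muscle), as did Crtc3 (-0.63 and -0.48), and the ETS factor genes Elk1 (0.59 and 1.25) and Elk4 (0.49 and 1.13) rose in both. With total counts only, Srf in fibers (-0.19, adjusted p = 0.0804) and Crtc3 in both (-0.14 and -0.05) did not pass, and of the whole list 4 rose and 1 fell in fibers and 6 rose and 3 fell in whole muscle. Sham fibers were higher than sham whole muscle for 5 and lower for 4, and Stat3 (1.60), Mrtfb (1.19) and Crtc2 (0.78) were among the higher. Of 10 genes for turnover of AP-1 mRNA and protein, none rose and 6 fell in DEN fibers, and 2 rose and 4 fell in DEN whole muscle. Among all genes tested, 27.0% fell in fibers and 32.2% in whole muscle. Zfp36, which binds AU-rich mRNA and promotes its decay, differed by 5.70 between sham fibers (525 ± 98 RPM) and sham whole muscle (9.86 ± 0.60 RPM). Its relatives Zfp36l1 (2.81) and Zfp36l2 (0.72) were also higher in sham fibers. With DEN, Zfp36 changed by -0.56 in fibers. In whole muscle Zfp36 did not pass with TMM (-0.03, adjusted p = 0.864) but rose with total counts only (0.40, adjusted p = 0.0326). Zfp36l1 changed by 0.70 in whole muscle and by -0.34 in fibers (adjusted p = 0.0168). With total counts only, its change in fibers did not pass (0.15, adjusted p = 0.296). The ubiquitin ligase genes Det1 (-0.73 in fibers and -0.89 in whole muscle) and Cop1 (-0.53 and -0.61) fell in both. With total counts only, neither Cop1 (-0.04, adjusted p = 0.539) nor Zfp36 (-0.08, adjusted p = 0.608) passed in fibers, where 5 of the 10 genes rose and 1 fell, and in whole muscle 8 rose and 2 fell.

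Other basic leucine zipper (bZIP) factors, some of which pair with AP-1 proteins, gave mixed counts. Of 18 tested in fibers, 1 rose and 9 fell with DEN, and of 17 tested in whole muscle, 4 rose and 8 fell. Among all genes tested, 27.0% fell in fibers and 32.2% in whole muscle. Scaled to total counts, 6 of these factors rose and 6 fell in fibers, and 10 rose and 6 fell in whole muscle. The large Maf factors Mafa and Maf fell in both, Mafa with -3.07 in fibers and -2.16 in whole muscle and Maf with -2.30 and -2.35. In sham fibers 10 of 17 were higher than in sham whole muscle, with a median of 0.47. They included Mafk, a small Maf protein like Maff (3.31), the stress factor Ddit3 (2.89) and Nfe2l2, the master factor of antioxidant genes (1.71).

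Among genes known as AP-1 targets in mouse or human cells, 3 rose and 7 fell of 23 tested in DEN fibers (median -0.14). In DEN whole muscle 13 rose and 6 fell of 22 tested (median 1.17). Over all genes tested, 27.1% rose and 27.0% fell in fibers, and 34.0% rose and 32.2% fell in whole muscle. Scaled to total counts, the counts of targets were 7 and 0 in fibers and 13 and 3 in whole muscle. With that scaling, 9950 of all 16724 genes tested rose in fibers and 9983 of 16379 in whole muscle. Spp1 (osteopontin) rose in both, by 3.86 in fibers, from 1.46 ± 0.76 to 29.6 ± 6.5 RPM, and by 5.47 in whole muscle, from 0.738 ± 0.821 to 43.5 ± 6.2 RPM. Tgfb1 also rose in both, by 1.11 in fibers and by 2.24 in whole muscle. Plaur, the urokinase receptor gene, changed by -1.23 in fibers and did not pass there with total counts only (-0.74, adjusted p = 0.0805). In whole muscle Plaur rose by 1.57 (adjusted p = 0.000835). The paper had singled out Spp1 and Tgfb1 from its myofiber RNA, so their rise in these fibers is not an independent result. The paper also measured both by qRT-PCR in myofibers, and their proteins in myofibers, whole muscle and myofiber culture supernatant. Mmp13, a collagenase gene, rose by 6.37 in whole muscle, with single libraries between 0.224 and 14.3 RPM after DEN and between 0.0420 and 0.126 RPM in sham, so it was tested only because of the DEN libraries. Timp1, a metalloprotease inhibitor gene, rose by 4.71. In sham fibers 16 of 22 targets were higher than in sham whole muscle (median 2.44). The cytokine gene Il6 had 36.6 ± 16.5 RPM in the fibers and 0.0291 ± 0.0280 RPM in the whole muscle, too few counts there for a fold change. The chemokine gene Cxcl1 differed by 7.94 (47.3 ± 14.0 against 0.188 ± 0.037 RPM) and Mt2 by 6.33.

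Other immediate early genes gave counts in the same directions as the AP-1 genes. All 26 tested were higher in sham fibers than in sham whole muscle (median 3.91), 1 rose and 21 fell of 26 in DEN fibers (median -1.11), and 13 rose and 4 fell of 25 in DEN whole muscle (median 0.44). Of all genes tested, 25.5% were higher in sham fibers, 27.0% fell in DEN fibers and 34.0% rose in DEN whole muscle. Egr1 (7.11) and Egr2 (7.09) were among the largest differences between the sham groups, and Egr4 had 1.53 ± 0.63 RPM in the fibers and 0.0045 RPM in the whole muscle, too few counts there for a fold change. With DEN, Egr4 (-3.04), Gadd45b (-1.97) and Nr4a3 (-1.93) fell in fibers, and in whole muscle Egr3 (2.75) and Sik1 (2.50) rose while Gadd45b (-1.94) fell. Egr3 (-1.14) and Sik1 (-0.40) fell in fibers, though Sik1 did not pass there with total counts only (0.08, adjusted p = 0.65). Scaled to total counts, 15 fell and 2 rose in fibers, and 16 rose and 3 fell in whole muscle. Heat shock genes, which stress induces through another factor, did likewise. All 12 were higher in sham fibers (median 2.55), 11 fell in DEN fibers (median -0.71) and 11 rose in DEN whole muscle (median 0.61). When scaled to total counts, 6 fell and 1 rose in fibers and 12 rose in whole muscle. Hspa1b (9.54), Hspa1a (9.19) and Dnajb1 (7.24) led the difference between the sham groups. In DEN fibers Dnajb1 (-1.43), Hspa1a (-1.28) and Hspa1b (-1.24) fell, and in DEN whole muscle Hsp90aa1 (1.42), Hspa1b (1.31) and Hspb1 (1.24) rose. Hspa1a and Hspa1b are near-identical copies, so reads can be split between them. The part of these genes in the AP-1 values was not tested, and fiber isolation cannot be told apart from the difference in muscle.

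**Figure D4:**
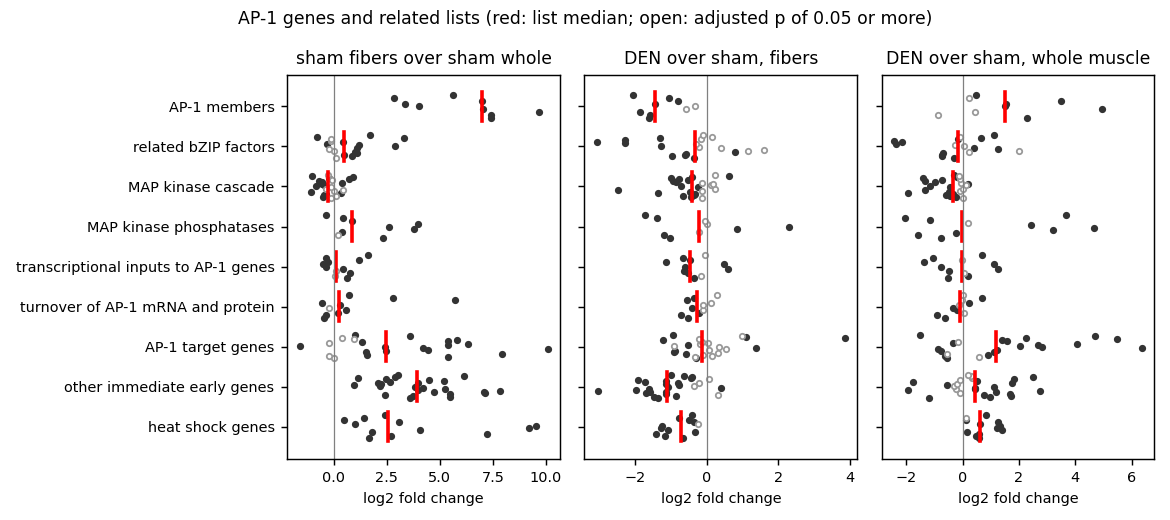
Log2 fold changes of the AP-1 genes and of the 8 related lists are plotted for sham fibers over sham whole muscle, DEN over sham in fibers and DEN over sham in whole muscle, with 1 point per tested gene, red bars at the list medians and open points for an adjusted p of 0.05 or more. The medians of AP-1, other immediate early and heat shock genes all lie above 0 in the first panel (6.98, 3.91 and 2.55), below 0 in the second and above 0 in the third.

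Markers of other cells also moved with these comparisons. Over all genes tested, 27.1% rose and 27.0% fell in DEN fibers, 34.0% rose and 32.2% fell in DEN whole muscle, and 25.5% were higher in sham fibers. All 10 macrophage markers rose in DEN fibers, where their summed level was 119 to 181 RPM against 25.1 to 51.7 RPM in sham fibers, and 5 of 10 rose and 1 fell in DEN whole muscle, with 128 to 147 RPM against 50.6 to 114 RPM in sham. Between the sham groups, 7 of the 10 were lower in fibers, as were 23.2% of all genes tested. All 6 Schwann cell markers were higher in sham fibers (90.5 to 181 RPM) than in sham whole muscle (36.9 to 47.6 RPM), and 4 fell in DEN fibers (23.7 to 55.6 RPM). Of 4 tenocyte markers, 3 were higher in sham fibers, with a range of 93.0 to 909 RPM against 45.4 to 106 RPM in sham whole muscle, and in DEN whole muscle 2 rose. Of the muscle stem cell markers 3 of 6 were higher and 2 lower in sham fibers, none passed in DEN fibers and 2 fell in DEN whole muscle. The 8 muscle fiber markers summed in the sham groups to 151822 to 184819 RPM (fibers) and 174542 to 195016 RPM (whole muscle), so both preparations carried the defining transcripts of fast muscle. Of these 8, 6 fell and 1 rose in DEN fibers (88106 to 102609 RPM) and 7 fell in DEN whole muscle (117849 to 125347 RPM). Of 6 pericyte and smooth muscle markers, all fell in DEN whole muscle (317 to 389 RPM against 414 to 463 RPM in sham) and 2 rose in DEN fibers. Of 6 endothelial markers, 5 fell in DEN whole muscle (238 to 287 RPM against 319 to 357 RPM in sham) and 2 fell in DEN fibers. All 3 tested adipocyte markers were lower in sham fibers (0.0402 to 1.56 RPM) than in sham whole muscle (5.20 to 53.2 RPM), and Lep of that list was at 0 in all sham fiber libraries. No marker of the other 7 lists named here was at 0 in a whole group. The part of these cells in the AP-1 values was not tested.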

How the data were processed

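RNA of 16 libraries (4 groups of 4) was sequenced by the authors from 1 end after polyA selection with a directional kit. Per the labels and the methods of the study, reads were processed with bcl2fastq 2.20.0.422, cutadapt 2.1, TopHat2 2.1.0 on GRCm38 and featureCounts 1.6.5 with strand used. The deposited counts are whole reads per gene. The deposited RPM values are counts scaled by the authors to each library's total, and recomputation differed by at most 5.1e-11. The deposited RPKM values also divide by a gene length, which RPM over RPKM gave back as constant for each gene.

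Differential expression was tested on counts with edgeR 4.0.16 (R 4.3.3): filterByExpr with a minimum count of 10, TMM scaling and the quasi-likelihood test. Each comparison of 2 groups used its own 8 libraries and the interaction all 16. The SE of a log2 fold change was its size over the square root of its F value. DESeq2 1.42.0 was an alternative, as were DESeq2 size factors, total counts only, no filter, 1 fit of all libraries, a replicate block and leaving out each library. Replicates were not repeat deposits of 1 library (the closest 2 replicates had a mean chi-square of 13.2 per gene, where counting noise alone gives 1, over genes with at least 20 summed counts), and p values measure the spread between these libraries. The fits were tested on simulated data. Same-numbered libraries did not deviate together in every pair, so the numbers were not taken as pairs.

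The members and gene lists were chosen with earlier results of these data known. Named were the 9 members, Chrng and Myog, up to 3 genes per list with the largest change among those with an adjusted p below 0.05 and a mean of at least 1 RPM in the higher group, and the 3 genes nearest to Fos, Junb and Atf3. Other list genes were named in no comparison, and some genes that met these rules are not reported here. Coordinates are from GENCODE M21 and promoter sequences from RefSeq, both on GRCm38. For 1 list symbol with 2 identifiers, the identifier with more counts was used.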

Additional observations from a re-analysis of the deposited data

Results flagged for a closer look

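Of 36 sets of 4 libraries (9 genes in 4 groups), 4 held a library that stood apart by Dixon's test, which chance does in about 1 of 20 sets. Fos was at 24.4 RPM in replicate 1 of sham whole muscle, with the next library at 4.51 RPM, and Atf3 was at 6.89 RPM in the same library, with the next at 3.16 RPM. Fosb was at 2.65 RPM in replicate 3 of DEN whole muscle, with the next at 0.756 RPM. Jund was at 199 RPM in replicate 3 of DEN fibers, with the next at 165 RPM.

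For 8 members the DEN response in fibers differed from that in whole muscle by the interaction test of edgeR. The differences on the log2 scale, fibers minus whole muscle, were -2.34 for Fosb, -5.56 for Fosl1, -1.83 for Fosl2, -2.99 for Jun, -4.31 for Junb, -1.28 for Jund, -3.88 for Atf3 and -2.56 for Maff. That of Fosl1 rests on 1 to 7 counts in sham whole muscle. The fibers were freed by collagenase from the EDL, and the whole muscle was undigested TA. Muscle and preparation therefore cannot be told apart in these differences.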

How the results depend on the processing

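Every member kept its direction and call in the comparisons of fibers with whole muscle, sham or DEN, under all 14 alternatives each. In DEN fibers, 7 to 9 members were lower when each library was left out and 7 or 8 under the other 6 alternatives. In DEN whole muscle, 5 to 7 were higher when each library was left out and 6 or 7 otherwise, and the interaction was lower in fibers for 8 or 9 members. None was called in the opposite direction in any of them. The summed RPKM of the 9 genes moved beyond its SD with TMM-scaled counts, to 2529 in sham fibers, 1053 in DEN fibers and 201 in DEN whole muscle. With the merged exon length of Junb, an alternative chosen after seeing the data, the sum moved to 1164 in DEN fibers and 214 in DEN whole muscle, and the share of Junb to 23.7% in sham fibers, 33.5% in DEN fibers, 6.50% in sham and 26.7% in DEN whole muscle. In a replicate block fit, 8 members were lower in DEN fibers (Fosl1 passed, -0.52, adjusted p = 0.0403), 6 were higher in DEN whole muscle, and all genes called numbered 9347 and 10478. The block left the counts of members in the other comparisons as they were. In DEN fibers 3 of 4 libraries resembled their own number best among the sham libraries, and in whole muscle 1 of 4, so the numbers were not taken as pairs. Of 1386 list counts under alternatives, 86 moved by over 1.5 times, 67 of them counts of 3 or fewer. Counts of 1 to 7 limit Fosl1 in sham whole muscle, and 4 libraries per group limit every test.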
